A study of Mus musculus with 12 samples.

Results

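The 36 genes described here encode enzymes, regulators and carriers of sterol and fatty acid synthesis. They were chosen by gene name, and all 36 were among the 12208 gene rows of the count table. The sterol branch has 22 members, from HMG-CoA synthase to the last reduction step of cholesterol synthesis, with the regulators that control them. The fatty acid branch has 14 members, from citrate cleavage to desaturation, elongation and activation. All 22 and all 14 passed the filter on low counts. The lowest count of any member in any library was 82, for Fdps.

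RNA was measured by QuantSeq, which sequences tags near the 3′ end of polyadenylated transcripts, so a count stands for transcripts and does not grow with transcript length. The cells were 393P, a mouse lung cancer line labelled as epithelial and not metastatic, grown in RPMI with fetal bovine serum and given no treatment. Lines labelled Zeb1_mimetic (mimetic), Zeb1_deficient (deficient) and Zeb1_WT (WT) were set against GFP_Vector (vector). All 4 lines share the 393P background, and counts of Zeb1 do not tell resident from introduced transcripts. The series concerns acetylation of ZEB1, a transcription factor that represses epithelial genes, and mimetic and deficient are read here as acetylation-mimetic and acetylation-deficient forms. Each line is represented by 3 libraries labelled as biological replicates, although the design text of the series speaks of 2. Nothing in the labels says how far apart the cultures were, so the spread behind each p-value may be technical, and 1 line stands for each form. An effect of the form and a difference that arose when a line was made cannot be told apart.

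Cells make cholesterol from acetyl-CoA through mevalonate, squalene and lanosterol, and make fatty acids from acetyl-CoA through malonyl-CoA. Transcription of both pathways is driven by the SREBP factors, encoded by Srebf1 and Srebf2, which SCAP escorts from the endoplasmic reticulum when membrane sterol is low and INSIG proteins hold back when it is high. Many genes of the sterol pathway therefore tend to move as a group, and proliferating tumour cells use both pathways to build membranes.

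Total counts ran from 24.4 to 27.5 M per library in mimetic, 31 to 33 M in deficient, 28.4 to 35.8 M in WT and 33.3 to 39 M in vector. Zeb1 stood at 228 ± 12.2 CPM in mimetic, 484 ± 13.1 in deficient, 244 ± 6.87 in WT and 31.3 ± 2.79 in vector (SD, n = 3 each, as for all levels below; CPM is the usual count scaled to library size, here after TMM adjustment). Zeb1 RNA was thus higher in every Zeb1 line than in vector and higher in deficient than in mimetic or WT. The counts do not show which mutation a line carries. The mitochondrially encoded share of counts was 0.482 to 0.504% in mimetic, 0.698 to 0.722% in deficient, 0.396 to 0.426% in WT and 0.814 to 0.998% in vector. Of 7 epithelial markers 6 were in the table, and their summed level was 5560 to 5730 CPM in mimetic, 7690 to 7820 in deficient, 4170 to 4320 in WT and 9050 to 10500 in vector, with 5 of the 6 called lower in each Zeb1 line than in vector. Of all genes tested, 30.9% were called lower than vector in mimetic, 29.8% in deficient and 33.6% in WT. Of 10 leukocyte, endothelial and fibroblast markers 6 were in the table, and they summed to 8.66 to 9.37 CPM in mimetic, 12.7 to 17 in deficient, 4.05 to 5.06 in WT and 8.74 to 11.3 in vector. Replicates 3 of deficient and of vector stood apart from their lines. The mean chi-square per gene between libraries, which grows with depth, was 17.1 and 23.6 for deficient replicate 3 against the others of its line and 5.25 between those others. For vector replicate 3 it was 13.7 and 21.2, against 6.23 between the others, while mimetic pairs gave 3.44 to 5.88 and WT pairs 2.96 to 4.33. The part of Zeb1 level, mitochondrial share and epithelial marker level in the results below was not tested. In bulk RNA, fewer cells of a kind and less RNA per cell cannot be told apart.

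The sequence before the start of the members was searched for short motifs, and some of these stretches are shown before the values. Whether the motifs bear on the levels was not tested. RefSeq promoters on GRCm38.p6 were matched for 29 of the 36 members, 18 of the sterol branch and 11 of the fatty acid branch. Fdps, Fdft1, Sqle, Stard4, Scd1, Scd2 and Fads1 were not matched. The 250 bases before the RefSeq start are shown for 4 sterol members and for Fasn as a fatty acid member. They run 5′ to 3′ on the strand of the gene. Hmgcs1 is the only matched member that held the full sterol element searched. Insig1, Cyp51 and Msmo1 are the members with the smallest adjusted p between mimetic and deficient among those matched, and like Fasn were chosen after their values were seen. Capitals mark matches on either strand to TCACNCCAC (a form of the sterol regulatory element that SREBP binds), to its core CACNCCAC, to CCAAT (the box bound by NF-Y, read as ATTGG on the other strand) and to CACGTG (the palindromic E-box).
Hmgcs1: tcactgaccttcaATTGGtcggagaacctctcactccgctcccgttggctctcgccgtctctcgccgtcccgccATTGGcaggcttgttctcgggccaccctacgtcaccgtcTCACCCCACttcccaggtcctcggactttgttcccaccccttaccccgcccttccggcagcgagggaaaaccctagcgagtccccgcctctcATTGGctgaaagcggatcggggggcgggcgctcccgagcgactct
Insig1: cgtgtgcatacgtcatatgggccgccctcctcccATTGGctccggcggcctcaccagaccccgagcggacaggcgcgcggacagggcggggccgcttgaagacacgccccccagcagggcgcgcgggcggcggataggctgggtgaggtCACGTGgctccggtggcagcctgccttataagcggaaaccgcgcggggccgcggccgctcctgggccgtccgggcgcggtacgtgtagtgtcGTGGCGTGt
Cyp51: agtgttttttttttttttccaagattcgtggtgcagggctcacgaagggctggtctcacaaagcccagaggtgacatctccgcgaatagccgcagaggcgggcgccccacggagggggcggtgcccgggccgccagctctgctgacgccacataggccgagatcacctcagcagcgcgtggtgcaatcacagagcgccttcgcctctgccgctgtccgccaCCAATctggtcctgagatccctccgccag
Msmo1: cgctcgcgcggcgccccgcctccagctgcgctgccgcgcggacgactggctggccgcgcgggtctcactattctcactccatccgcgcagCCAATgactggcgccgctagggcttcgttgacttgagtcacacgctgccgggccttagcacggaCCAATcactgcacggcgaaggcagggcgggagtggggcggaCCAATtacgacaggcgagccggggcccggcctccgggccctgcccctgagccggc
Fasn: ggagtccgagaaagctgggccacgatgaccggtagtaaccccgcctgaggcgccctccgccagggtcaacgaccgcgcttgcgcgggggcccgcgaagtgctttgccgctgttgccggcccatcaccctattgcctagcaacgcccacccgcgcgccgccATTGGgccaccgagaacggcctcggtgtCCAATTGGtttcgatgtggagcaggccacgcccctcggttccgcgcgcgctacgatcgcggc

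The Hmgcs1 stretch is chr13:119690101-119690350 on the plus strand, Insig1 chr5:28071162-28071411 on plus, Cyp51 chr5:4104698-4104947 on minus, Msmo1 chr8:64733579-64733828 on minus and Fasn chr11:120824548-120824797 on minus. In Hmgcs1 the sterol element lies 137 to 129 bases before the start, with CCAAT boxes on the other strand on both sides of it. Msmo1 holds 3 CCAAT boxes, at 160, 96 and 55 bases before the start. In Fasn a CCAAT box and its reverse form overlap, and another stands 90 bases before the start. The GENCODE M21 genes used for positions here begin farther upstream, at 64733792 for Msmo1, 4104746 for Cyp51 and 28071363 for Insig1. The 3 Msmo1 CCAAT boxes, the Cyp51 CCAAT box and the Insig1 CACNCCAC match therefore lie inside those annotated genes. CCAAT was present in 17 of 18 sterol members (94.4%), all those matched but Scap, and in 5 of 11 fatty acid members (45.5%), against 41% of the 9363 genes of the count table that have a promoter there. Some genes have more than 1 promoter, and a gene was counted if any of them held the letters. By promoter, CCAAT was in 18 of 24 of the sterol branch (75%) and 5 of 13 of the fatty acid branch (38.5%), against 35.6%. TCACNCCAC was in 1 of 18 sterol members and 0 of 11 fatty acid members, against 1.26% of count table genes. The shorter CACNCCAC, which is part of TCACNCCAC and was searched after the longer form had been seen to be rare, was in 2 of 18 and 1 of 11, against 6.62%. CACGTG was in 5 of 18 sterol members (27.8%) and 1 of 11 fatty acid members (9.09%), against 9.75%. CACCTG, an E2-box of the kind ZEB1 is known to bind, was in 2 of 18 sterol members (Pmvk and Lss) and in 2 of 11 fatty acid members (Elovl1 and Me1), against 18.4%. These are counts of letters in a short window, and no binding was measured.

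Sterol genes were lowest in mimetic. Their summed level was 1550, 1560 and 1580 CPM in the mimetic libraries, 2130, 2140 and 2140 in deficient, 1830, 1800 and 1850 in WT and 2470, 2500 and 2570 in vector. The sums of the 4 lines did not overlap, and the order was mimetic, WT, deficient and vector, low to high. Fatty acid genes summed to 4070, 4130 and 4190 CPM in mimetic, 5150, 5130 and 5060 in deficient, 5320, 5300 and 5260 in WT and 6090, 6290 and 6050 in vector. Here too the lines did not overlap, but deficient lay below WT. A large part of each sum was Scd2 alone, at means of 1840 CPM in mimetic, 2570 in deficient, 2670 in WT and 2960 in vector. The median log2 fold change of the 14 members between deficient and WT was -0.02. The mean of mimetic was the lowest of the 4 lines for 17 of 22 sterol and 10 of 14 fatty acid members, and the mean of vector the highest for 17 and 11. How often the means of all genes took these places was not counted.

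**Figure D1:**
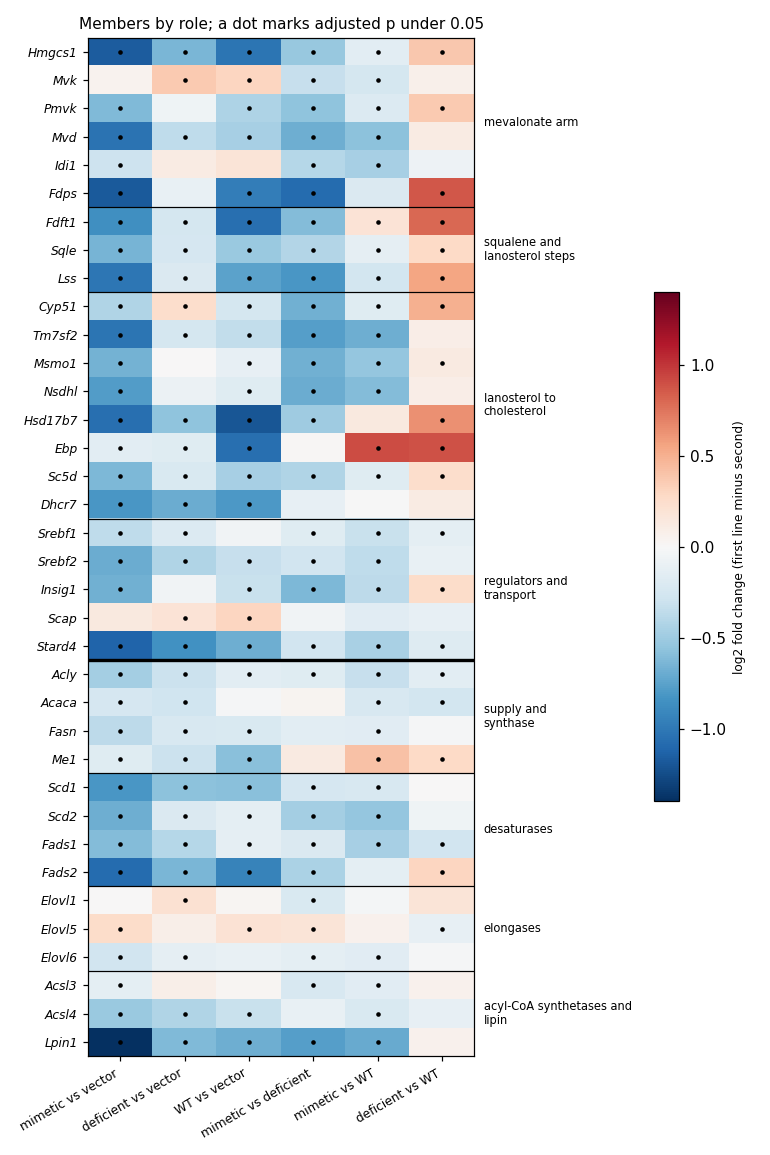
Log2 fold change of each member (rows, grouped by role, the sterol branch above the thick line and the fatty acid branch below it) in the 6 comparisons of lines (columns), red where the first line named is higher and blue where it is lower. Dots mark an adjusted p under 0.05; in mimetic vs vector 20 of 22 sterol members and 12 of 14 fatty acid members are blue with a dot.

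In the following, a member is said to have risen or fallen where edgeR's quasi-likelihood test, adjusted over the 12027 genes tested, gave an adjusted p under 0.05. Between mimetic and vector, 20 of 22 sterol members fell and 0 rose, where 30.9% of all genes tested were called lower and 28.6% higher (59.5% in either direction). The median log2 fold change was -0.68 over the sterol members and 0 over all genes. Mvk and Scap were the members not called. The count of 0 was also 0 at an unadjusted p under 0.05 with edgeR, with DESeq2 and with limma-voom, and 1 (Scap) with scaling by library size only. Of the 14 fatty acid members 12 fell and 1, Elovl5, rose, with a median of -0.42. With scaling by library size only, all genes in this comparison split into 4334 higher and 3004 lower calls, against 3438 and 3720 with TMM scaling, and 19 sterol and 10 fatty acid members still fell. Without vector replicate 3, 19 sterol and 12 fatty acid members fell.

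Between deficient and vector fewer sterol members were called. Of the sterol members 13 fell, 3 rose (Mvk, Cyp51 and Scap) and 6 were not called, with a median of -0.19, where 29.8% of all genes were called lower and 28.4% higher (58.2% in either direction). Of the fatty acid members 11 fell and 1, Elovl1, rose, with a median of -0.29. The count of 1 was 0 without deficient replicate 3 or vector replicate 1 and 2 without vector replicate 3. Between WT and vector, 18 sterol members fell and 2 (Mvk and Scap) rose, with a median of -0.44, where 33.6% of all genes were called lower and 31% higher (64.6% in either direction). Among fatty acid members 9 fell and 1, Elovl5, rose, with a median of -0.15. Without vector replicate 3, 11 sterol members fell in deficient and 16 in WT. Without deficient replicate 3, 13 fell in deficient. These comparisons share the vector libraries, so the same vector values enter each.

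Mimetic and deficient were compared directly. Of 22 sterol members 19 were lower in mimetic and 0 higher by edgeR's quasi-likelihood test, with a median of -0.52, where 14.9% of all genes were called lower and 12.6% higher (27.4% in either direction). The count of 0 was also 0 at an unadjusted p under 0.05 and by DESeq2 and limma-voom. Of 14 fatty acid members 9 were lower and 1, Elovl5, higher, with a median of -0.19. Without deficient replicate 3, 16 sterol and 7 fatty acid members were lower, and the count of 1 became 2. With scaling by library size only, all genes split into 1982 higher and 1509 lower calls, against 1510 and 1789 with TMM scaling, and 19 sterol and 7 fatty acid members were lower. Zeb1 RNA was itself 228 ± 12.2 CPM in mimetic and 484 ± 13.1 in deficient, so the form and its level cannot be told apart here.

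Between mimetic and WT, 16 sterol members were lower and 2 (Fdft1 and Ebp) higher, with a median of -0.23, where 21.8% of all genes were called lower and 23.1% higher (44.9% in either direction). Fatty acid members were lower for 10 and higher for 1, Me1, with a median of -0.19. With library size scaling 11 sterol and 7 fatty acid members were lower, where all genes split into 3506 higher and 1980 lower calls, against 2780 and 2618 with TMM scaling. Between deficient and WT, 12 sterol members were higher and 2 (Srebf1 and Stard4) lower, with a median of 0.19, where 27.5% of all genes were called higher and 26.3% lower (53.8% in either direction). The count of 2 lower was 0 with scaling by library size only, without deficient replicate 1, without deficient replicate 2 or without WT replicate 3, 1 without WT replicate 1 or 2 and 4 without deficient replicate 3. Only 2 fatty acid members (Fads2 and Me1) were higher and 4 lower in deficient than in WT, with a median of -0.02.

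The mevalonate arm opens with HMG-CoA synthase. Hmgcs1 (chromosome 13, 119690379 to 119708260, plus strand, GRCm38) had 221, 219 and 213 CPM in mimetic, 320, 329 and 297 in deficient, 238, 239 and 249 in WT and 488, 501 and 487 in vector. All 4 lines were apart from each other, in the order mimetic, WT, deficient, vector. Hmgcs1 was lower than vector by 2.26-fold in mimetic (log2 fold change -1.17, SE 0.042, adjusted p = 3.89e-15), 1.56-fold in deficient (-0.64, SE 0.042, adjusted p = 5.86e-11) and 2.03-fold in WT (-1.02, SE 0.042, adjusted p = 1.8e-14). Mimetic lay 1.45-fold below deficient (adjusted p = 5.52e-09) and 1.11-fold below WT (adjusted p = 0.00576), a call lost with scaling by library size only (adjusted p = 0.0696).

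The next enzymes did not all follow. Mevalonate kinase, Mvk, had 42.6, 45.5 and 52.1 CPM in mimetic, 56.1, 57 and 62.2 in deficient, 54.2, 53 and 59.9 in WT and 45.2, 41.5 and 48.8 in vector. Mimetic and vector overlapped (log2 fold change 0.05, adjusted p = 0.602), while deficient (0.37, SE 0.076, adjusted p = 0.00029) and WT (0.30, SE 0.076, adjusted p = 0.00168) stood above vector. Phosphomevalonate kinase, Pmvk, was 62.5 ± 4.25 CPM in mimetic, 91.8 ± 3.41 in deficient, 71.1 ± 2.91 in WT and 95.8 ± 4.81 in vector. The decarboxylase Mvd was 25.7 ± 2.82 CPM in mimetic, 41.2 ± 1.07 in deficient, 38.2 ± 3.07 in WT and 52.6 ± 4.09 in vector. Both fell in mimetic and WT against vector, and Mvd also in deficient. The isomerase Idi1, at 15.1 ± 1.43 CPM in mimetic, 19.9 ± 2.08 in deficient, 20.9 ± 1.34 in WT and 18.5 ± 0.757 in vector, was called lower only in mimetic among the Zeb1 lines against vector (log2 fold change -0.29, adjusted p = 0.0106). That call was lost without mimetic replicate 3 (adjusted p = 0.0631), and the difference of Idi1 between mimetic and deficient was -0.40 (adjusted p = 0.00287).

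Farnesyl diphosphate synthase, Fdps, feeds both sterols and protein prenylation. Its level was low, at 3.75, 3.58 and 2.9 CPM in mimetic, 7.63, 7.51 and 6.42 in deficient, 3.99, 3.73 and 4.06 in WT and 7.89, 7.32 and 7.87 in vector. Mimetic and WT overlapped at the lower level, and deficient and vector at the higher one. A total of 6 annotated genes other than Fdps carry a stretch at least 95% identical to its 3′ end, so reads may have been split between copies and its level is uncertain.

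Squalene synthase, squalene epoxidase and lanosterol synthase commit farnesyl units to sterol. Squalene synthase, Fdft1 (chromosome 14, 63145150 to 63179578, minus strand), had 56.5, 54.5 and 53.3 CPM in mimetic, 79.1, 83.6 and 88.2 in deficient, 48.9, 47.7 and 47.6 in WT and 93.7, 101 and 103 in vector. WT was the lowest line here, 2.07-fold below vector (log2 fold change -1.05, SE 0.054, adjusted p = 8.18e-13), and mimetic 1.82-fold (-0.86, SE 0.054, adjusted p = 2.8e-11), while deficient was 1.19-fold below (adjusted p = 0.000384). The last 400 bases of Fdft1, the stretch searched, all overlap Ctsb on the opposite strand. The strand used in counting is not given in the sources used here. Ctsb was called lower in WT against vector (log2 fold change -0.53, adjusted p = 2.73e-10) and not in mimetic (-0.05, adjusted p = 0.309) or deficient (0.00, adjusted p = 0.965).

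Squalene epoxidase, Sqle (chromosome 15, 59315077 to 59331192, plus strand), a step at which the pathway is controlled, had 141, 141 and 143 CPM in mimetic, 193, 190 and 184 in deficient, 154, 155 and 157 in WT and 219, 220 and 230 in vector. No library of one line reached into another. Sqle was 1.57-fold lower in mimetic than in vector (log2 fold change -0.65, SE 0.039, adjusted p = 1.24e-11), and 1.33-fold lower than in deficient (-0.41, SE 0.039, adjusted p = 7.96e-08). The cyclase Lss (chromosome 10, 76531588 to 76557138, plus strand) had 44.1, 48.3 and 50.7 CPM in mimetic, 83.2, 84.5 and 83.7 in deficient, 61.6, 52.1 and 58.4 in WT and 94.3, 94.3 and 99.8 in vector. Its order of lines was that of Sqle, with mimetic 2.01-fold below vector (-1.01, SE 0.062, adjusted p = 1.78e-11) and 1.76-fold below deficient (-0.81, SE 0.062, adjusted p = 3.65e-09).

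All 8 enzymes from lanosterol to cholesterol fell in mimetic and in WT against vector, and 5 fell in deficient, where 30.9% of all genes were called lower in mimetic, 33.6% in WT and 29.8% in deficient. Lanosterol demethylase, Cyp51 (chromosome 5, 4081145 to 4104746, minus strand), had 113, 107 and 108 CPM in mimetic, 175, 180 and 166 in deficient, 121, 127 and 120 in WT and 138, 146 and 153 in vector. Vector lay between deficient above it and the other lines below it. Against vector Cyp51 was lower in mimetic (log2 fold change -0.42, SE 0.047, adjusted p = 2.13e-07), higher in deficient (0.25, SE 0.046, adjusted p = 9.7e-05) and lower in WT (-0.25, SE 0.047, adjusted p = 0.000111). Mimetic was 1.59-fold below deficient (-0.67, SE 0.047, adjusted p = 1.19e-09).

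The methylsterol oxidase Msmo1 (chromosome 8, 64718139 to 64733792, minus strand) had 127, 129 and 120 CPM in mimetic, 202, 206 and 188 in deficient, 175, 185 and 184 in WT and 187, 204 and 199 in vector. Mimetic stood alone at the low end. Msmo1 was 1.57-fold lower in mimetic than in vector (-0.66, SE 0.048, adjusted p = 3.15e-10), and 1.59-fold lower than in deficient (-0.67, SE 0.048, adjusted p = 1.54e-09). Deficient and vector overlapped (log2 fold change 0.01, adjusted p = 0.823). In WT it was -0.12 against vector (adjusted p = 0.0351), a call lost without WT replicate 1 (adjusted p = 0.174), 2 (0.0535) or 3 (0.0666) and without vector replicate 2 (0.145) or 3 (0.0698), and also with RLE size factors (0.0641), library size scaling (0.0678) or DESeq2 (0.0736). Nsdhl, which acts in the same demethylation, was also lowest in mimetic, at 25 ± 1.02 CPM in mimetic, 40.5 ± 0.426 in deficient, 38 ± 1.2 in WT and 42.8 ± 1.46 in vector. Its call in WT against vector (-0.17, adjusted p = 0.0154) was lost without WT replicate 3 (0.0747) or vector replicate 3 (0.0515). The reductase Tm7sf2 stood at 11.6 ± 1.37 CPM in mimetic, 19.8 ± 0.941 in deficient, 18.6 ± 1.43 in WT and 23.6 ± 0.973 in vector, 2.03-fold lower in mimetic than in vector (adjusted p = 7.21e-09). Its call in deficient against vector (-0.25, adjusted p = 0.0165) was lost without deficient replicate 1 (0.0524), deficient replicate 2 (0.058) or vector replicate 3 (0.0544).

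**Figure D2:**
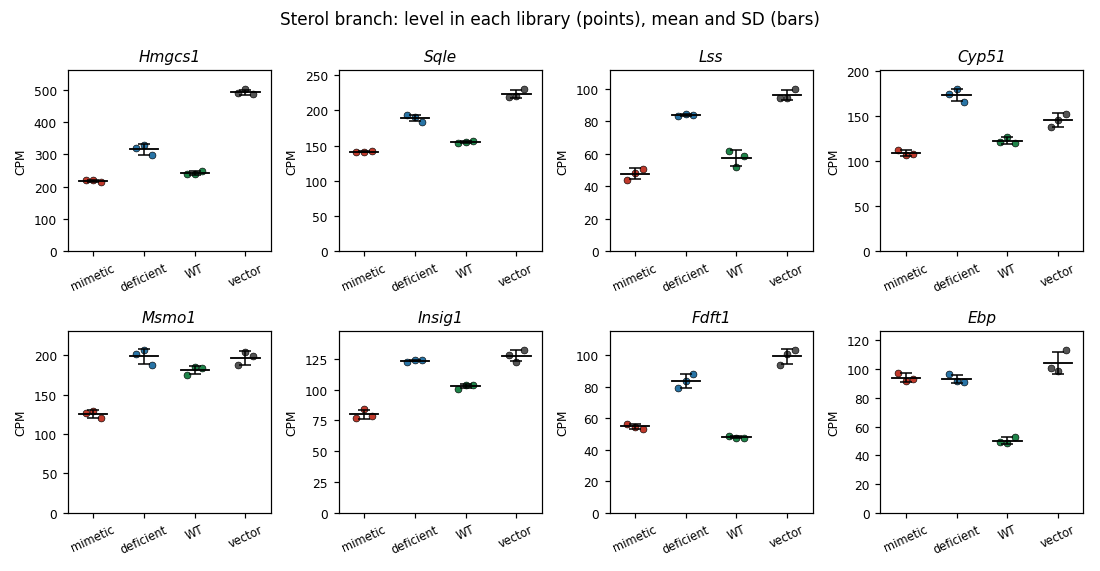
Level in CPM (vertical axes, from 0) of 8 sterol branch genes in each of the 3 libraries (points) of the mimetic, deficient, WT and vector lines, with the mean and SD as bars. Mimetic is lowest for the first 6 genes, Hmgcs1 to Insig1, while WT is lowest for Fdft1 and for Ebp, and for Ebp the other lines lie between 91 and 113 CPM.

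The sterol isomerase Ebp (X chromosome, 8185329 to 8193512, minus strand) departed from that pattern. It had 97.3, 91.7 and 93.2 CPM in mimetic, 96.3, 91.7 and 91 in deficient, 49.4, 48.6 and 52.7 in WT and 101, 98.8 and 113 in vector. WT alone was low, 2.08-fold below vector (log2 fold change -1.05, SE 0.055, adjusted p = 9.37e-13), and mimetic was 1.87-fold above WT (0.91, SE 0.056, adjusted p = 6.23e-11). The calls against vector in mimetic (-0.15, adjusted p = 0.0213) and deficient (-0.17, adjusted p = 0.0116) were small. The call in mimetic was lost without mimetic replicate 2 (adjusted p = 0.0806) or 3 (0.0582), and both were lost without vector replicate 3 (0.134 and 0.0804). With scaling by library size only, neither was called (0.226 in mimetic and 0.0542 in deficient), and with only the 2 lines compared mimetic was not (0.0504). Hsd17b7, a reductase of the demethylation steps, was also lowest in WT, at 14.5 ± 1.1 CPM in mimetic, 20.5 ± 0.219 in deficient, 13.1 ± 0.754 in WT and 30.2 ± 1.87 in vector, but its mimetic and WT values overlapped.

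The closing steps were lower than vector in all 3 Zeb1 lines. Sc5d, a sterol desaturase, was 62.6 ± 3.65 CPM in mimetic, 83.5 ± 2.16 in deficient, 70.3 ± 4.4 in WT and 96.6 ± 4.19 in vector. The last reductase, Dhcr7 (chromosome 7, 143823145 to 143848410, plus strand), had 14.8, 13.8 and 15.4 CPM in mimetic, 17.1, 15.2 and 15.5 in deficient, 14.1, 15.6 and 14.7 in WT and 24.8, 27.1 and 25.4 in vector. The 3 Zeb1 lines overlapped for Dhcr7 and all lay below vector, by 1.75-fold in mimetic (adjusted p = 3.9e-08), 1.62-fold in deficient (adjusted p = 3.06e-07) and 1.74-fold in WT (adjusted p = 3.17e-08). Mimetic and deficient differed by -0.12 (SE 0.084, adjusted p = 0.333).

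Of the regulators, Srebf2, whose product mainly drives sterol genes, had 135, 139 and 164 CPM in mimetic, 162, 165 and 199 in deficient, 192, 179 and 191 in WT and 244, 241 and 221 in vector. Every Zeb1 library lay below every vector library, by 1.61-fold in mimetic (log2 fold change -0.69, SE 0.073, adjusted p = 8.44e-08), 1.34-fold in deficient (-0.42, SE 0.073, adjusted p = 4.74e-05) and 1.25-fold in WT (-0.32, SE 0.073, adjusted p = 0.000573). Mimetic and deficient overlapped, and their difference of -0.27 (adjusted p = 0.00981) was not called without mimetic replicate 1 (adjusted p = 0.0666) or 2 (0.059) or without deficient replicate 3 (0.0709). Srebf1, whose products drive fatty acid genes as well, had 174, 177 and 186 CPM in mimetic, 200, 197 and 209 in deficient, 228, 211 and 227 in WT and 221, 214 and 254 in vector. Against vector Srebf1 was 1.29-fold lower in mimetic (-0.36, SE 0.055, adjusted p = 1.01e-05) and 1.14-fold lower in deficient (-0.19, adjusted p = 0.00609), and WT overlapped with vector (-0.05, adjusted p = 0.446). The difference of Srebf1 between mimetic and deficient was -0.17 (adjusted p = 0.0231) and was not called without mimetic replicate 1 (0.0934) or 2 (0.073) or without deficient replicate 3 (0.07).

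Insig1, the brake on SREBP and itself a gene that SREBP induces, had 76.7, 84.2 and 79 CPM in mimetic, 123, 124 and 124 in deficient, 101, 104 and 104 in WT and 128, 123 and 132 in vector. Deficient and vector overlapped (log2 fold change -0.05, SE 0.044, adjusted p = 0.38). Mimetic was 1.6-fold below vector (-0.67, SE 0.045, adjusted p = 8.35e-11) and 1.54-fold below deficient (-0.63, SE 0.046, adjusted p = 1.68e-09). Scap, the escort, was not lower in any Zeb1 line, with 50.1, 56 and 54.2 CPM in mimetic, 51.7, 51.5 and 63.2 in deficient, 60.2, 55.8 and 63.1 in WT and 50.1, 45.4 and 49.9 in vector. It rose in WT (0.30, SE 0.075, adjusted p = 0.00165), was 0.14 in mimetic (adjusted p = 0.117), and its call in deficient (0.19, adjusted p = 0.0331) was lost without deficient replicate 3 (0.274) or vector replicate 2 (0.129) and with only the 2 lines compared (0.0685).

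Stard4, a carrier that moves cholesterol between membranes, lies on chromosome 18 (33199355 to 33213862, minus strand). It had 34.1, 37.4 and 38 CPM in mimetic, 41.9, 42 and 48.3 in deficient, 47.4, 50.8 and 51.2 in WT and 83.9, 82.7 and 72 in vector. Every Zeb1 library was below every vector library, by 2.18-fold in mimetic (adjusted p = 3.56e-11), 1.81-fold in deficient (adjusted p = 2.21e-09) and 1.6-fold in WT (adjusted p = 4.3e-08). Its difference between mimetic and deficient, -0.27 (adjusted p = 0.00873), was not called without mimetic replicate 1 (0.055) or deficient replicate 3 (0.0533). Deficient lay below WT by -0.18 (adjusted p = 0.0415), which was not called without deficient replicate 1 (0.141) or 2 (0.145) or WT replicate 2 (0.0867) or 3 (0.0965).

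In the fatty acid branch the enzymes that supply and assemble acyl chains were lower than vector by at most 1.49-fold. ATP-citrate lyase, Acly (chromosome 11, 100476353 to 100528000, minus strand), which makes cytosolic acetyl-CoA, had 343, 352 and 349 CPM in mimetic, 398, 393 and 386 in deficient, 437, 438 and 430 in WT and 463, 480 and 510 in vector. The 4 lines were apart, in the order mimetic, deficient, WT and vector, and mimetic was 1.39-fold below vector (log2 fold change -0.48, SE 0.04, adjusted p = 2.15e-09). Acetyl-CoA carboxylase, Acaca, was 92 ± 0.729 CPM in mimetic, 89.2 ± 1.78 in deficient, 107 ± 3.93 in WT and 108 ± 4.12 in vector, so that it fell in mimetic and deficient and not in WT (-0.02, adjusted p = 0.721). Fatty acid synthase, Fasn, had 360, 366 and 423 CPM in mimetic, 399, 412 and 463 in deficient, 444, 420 and 423 in WT and 501, 504 and 481 in vector. It fell in all 3 Zeb1 lines against vector, 1.29-fold in mimetic (adjusted p = 1.37e-05), and the mimetic and deficient libraries overlapped (-0.15, adjusted p = 0.0629; 0.00506 without mimetic replicate 3, 0.0291 without deficient replicate 1 and 0.0365 without vector replicate 3).

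Me1, the malic enzyme that yields NADPH for synthesis, had 103, 104 and 107 CPM in mimetic, 90, 92.3 and 104 in deficient, 76.1, 79.6 and 80.5 in WT and 120, 124 and 108 in vector. Like Ebp it was lowest in WT, 1.49-fold below vector (log2 fold change -0.58, SE 0.058, adjusted p = 3.3e-08), and mimetic was 1.33-fold above WT (0.41, SE 0.059, adjusted p = 1.08e-05). Its call in mimetic against vector (-0.17, adjusted p = 0.0189) was lost without mimetic replicate 1 (0.062), vector replicate 1 (0.0647) or vector replicate 2 (0.0923), and with scaling by library size only (-0.09, adjusted p = 0.184). Without deficient replicate 3, Me1 was called higher in mimetic than in deficient (0.20, adjusted p = 0.0122), against 0.13 (adjusted p = 0.103) with all libraries, and it was also called higher with scaling by library size only (0.16, adjusted p = 0.0472).

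The desaturases fell in every Zeb1 line against vector, 4 of 4 in each, where 30.9% of all genes were called lower in mimetic, 29.8% in deficient and 33.6% in WT. Scd1 (chromosome 19, 44394455 to 44407879, minus strand), a stearoyl-CoA desaturase that makes oleate, had 525, 544 and 544 CPM in mimetic, 625, 608 and 665 in deficient, 629, 622 and 627 in WT and 954, 986 and 882 in vector. Deficient and WT overlapped between mimetic below and vector above. Scd1 was 1.75-fold lower in mimetic (log2 fold change -0.81, SE 0.045, adjusted p = 3.34e-12), 1.49-fold in deficient (adjusted p = 8.81e-10) and 1.5-fold in WT (adjusted p = 3.66e-10). Its neighbour and paralog Scd2 (chromosome 19, 44293674 to 44306864, plus strand) had 1820, 1820 and 1870 CPM in mimetic, 2630, 2630 and 2450 in deficient, 2680, 2700 and 2640 in WT and 2920, 3010 and 2940 in vector. Here mimetic stood far from the rest, 1.61-fold below vector (-0.68, SE 0.039, adjusted p = 5.48e-12), 1.4-fold below deficient (-0.48, SE 0.039, adjusted p = 7.48e-09) and 1.45-fold below WT (-0.54, SE 0.039, adjusted p = 7.29e-10). WT was 1.11-fold below vector for Scd2 (-0.14, SE 0.039, adjusted p = 0.00278).

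**Figure D3:**
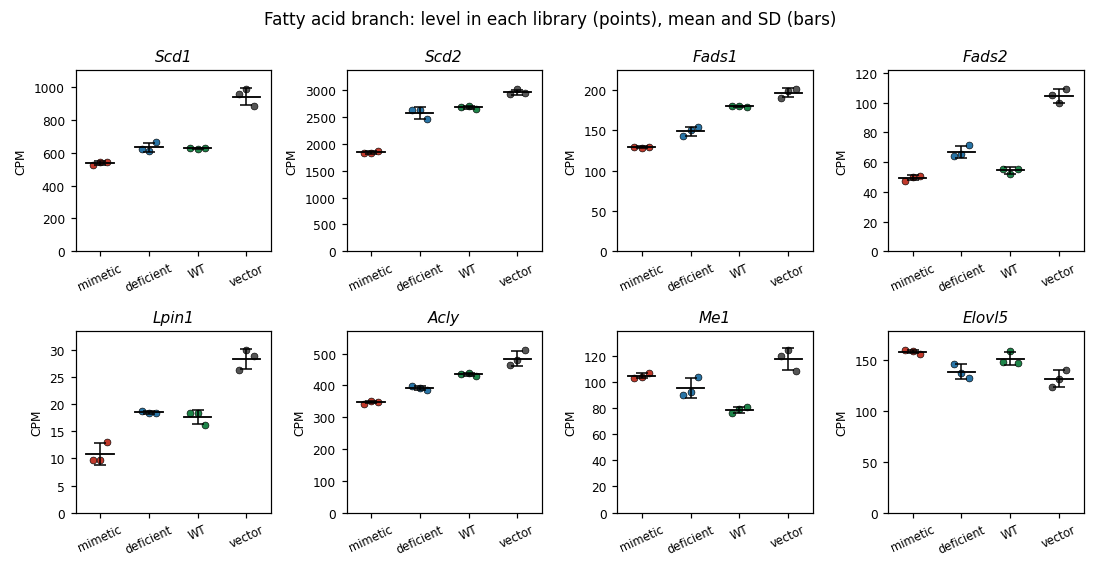
Level in CPM (vertical axes, from 0) of 8 fatty acid branch genes in each of the 3 libraries (points) of the mimetic, deficient, WT and vector lines, with the mean and SD as bars. Mimetic is lowest for Scd1, Scd2, Fads1, Fads2, Lpin1 and Acly, WT is lowest for Me1, and mimetic is highest for Elovl5.

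Fads1 and Fads2, neighbouring genes for the desaturases of polyunsaturated fatty acids, differed in WT. Fads1 (chromosome 19, 10182888 to 10196877, plus strand) had 130, 128 and 130 CPM in mimetic, 143, 150 and 154 in deficient, 180, 180 and 179 in WT and 190, 199 and 201 in vector. Fads2 (chromosome 19, 10062765 to 10101746, minus strand) had 47.4, 50.3 and 50.4 CPM in mimetic, 64, 65.4 and 71.7 in deficient, 55.6, 52 and 55.6 in WT and 105, 99.6 and 109 in vector. Fads1 in WT was near vector, 1.1-fold lower (log2 fold change -0.13, SE 0.04, adjusted p = 0.00764), whereas Fads2 in WT was 1.92-fold lower (-0.94, SE 0.056, adjusted p = 8.11e-12), and the difference between the genes was not itself tested. In mimetic Fads1 was 1.52-fold (-0.61, SE 0.041, adjusted p = 8.75e-11) and Fads2 2.11-fold (-1.08, SE 0.057, adjusted p = 1.47e-12) below vector, and in deficient 1.32-fold (adjusted p = 4.44e-08) and 1.56-fold (adjusted p = 4.83e-09). Between mimetic and WT, Fads2 was -0.14 (adjusted p = 0.0567), and the adjusted p was 0.0333 without WT replicate 2, 0.0356 without deficient replicate 3, 0.0466 without vector replicate 2 and 0.0379 without vector replicate 3. It was also under the threshold with RLE size factors (0.0445), with DESeq2 (0.0461) and with only the 2 lines compared (0.0318).

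The 3 elongases differed from vector by at most 1.21-fold in any Zeb1 line. Elovl5, which extends polyunsaturated chains, had 159, 158 and 156 CPM in mimetic, 146, 137 and 132 in deficient, 148, 158 and 147 in WT and 123, 131 and 140 in vector. It rose in mimetic (log2 fold change 0.26, SE 0.051, adjusted p = 0.000165) and in WT (0.20, SE 0.051, adjusted p = 0.00158) and was 0.08 in deficient (adjusted p = 0.194; 0.0296 without vector replicate 3 and 0.0378 with scaling by library size only). Elovl1, of very long chains, had 25, 25.4 and 29 CPM in mimetic, 29.8, 30.1 and 31.9 in deficient, 27.4, 27.4 and 26.3 in WT and 24.3, 26.8 and 28 in vector. Deficient lay above every other line, and mimetic and WT overlapped vector. Its call in deficient against vector (0.21, adjusted p = 0.0189) was lost without deficient replicate 3 (0.0648) or vector replicate 1 (0.109). Elovl6, which extends palmitate, was 113 ± 3.48 CPM in mimetic, 125 ± 2.14 in deficient, 127 ± 2.69 in WT and 136 ± 8.72 in vector, 1.21-fold lower in mimetic than in vector (adjusted p = 5.73e-05).

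Lpin1, a phosphatidate phosphatase of glycerolipid synthesis (chromosome 12, 16535669 to 16610966, minus strand), had the largest fall of any of the 36 genes in mimetic against vector. It had 9.69, 9.63 and 13.1 CPM in mimetic, 18.7, 18.4 and 18.3 in deficient, 18.3, 18.4 and 16.2 in WT and 26.3, 29.9 and 28.9 in vector. Deficient and WT overlapped between the other lines. Lpin1 was 2.62-fold lower than vector in mimetic (log2 fold change -1.39, SE 0.1, adjusted p = 3.5e-10), 1.54-fold in deficient (adjusted p = 1.39e-05) and 1.61-fold in WT (adjusted p = 3.4e-06), and mimetic was 1.7-fold below deficient (-0.77, SE 0.1, adjusted p = 1.14e-05). The acyl-CoA synthetase Acsl4, which prefers arachidonate, was 134 ± 6.94 CPM in mimetic, 143 ± 3.06 in deficient, 155 ± 4.62 in WT and 192 ± 18.6 in vector and fell in all 3. Acsl3, an enzyme of lipid droplets, was 203 ± 19.7 CPM in mimetic, 237 ± 10.9 in deficient, 228 ± 0.359 in WT and 224 ± 6.97 in vector. Its call in mimetic against vector (-0.14, adjusted p = 0.0347) was lost without mimetic replicate 3 (0.286), vector replicate 1 (0.072) or vector replicate 2 (0.104), and with scaling by library size only (0.315). The call was also lost with at least 5 CPM in 3 libraries (0.0604) and with only the 2 lines compared (0.0776).

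Other genes of the pathways were counted from pathway lists. Of 15 further genes of sterol synthesis and uptake tested, 8 fell and 3 rose in mimetic against vector (median -0.20), and 5 were lower and 1 higher in mimetic than in deficient (median -0.08). For comparison, 30.9% of all genes were called lower and 28.6% higher in mimetic against vector, and 14.9% lower and 12.6% higher against deficient. The count of 1 was 0 without mimetic replicate 1 or 2 or deficient replicate 1 or 2. Scarb1, a receptor for lipoprotein cholesterol, rose in all 3 Zeb1 lines, with 41.3 ± 2.05 CPM in mimetic, 43.9 ± 1.05 in deficient, 35.7 ± 1.83 in WT and 21.3 ± 0.577 in vector, 1.94-fold in mimetic (adjusted p = 8.9e-11). Of 10 genes of sterol efflux, esterification and LXR signalling tested, 4 fell and 2 rose in mimetic against vector, and 1 (Lpcat3) was lower and 1 (Nr1h3) higher in mimetic than in deficient. These counts are close to the shares of all genes called in either direction, 59.5% against vector and 27.4% against deficient. The higher call was lost without mimetic replicate 1, 2 or 3, deficient replicate 1 or 2 or WT replicate 1. Lpcat3, a phospholipid acyltransferase, was 69.1 ± 2.59 CPM in mimetic, 91.8 ± 2.27 in deficient, 82.5 ± 0.942 in WT and 105 ± 4.66 in vector. Nr1h3, which encodes the sterol-sensing receptor LXR alpha, was 1.76 ± 0.241 CPM in mimetic, 0.985 ± 0.0796 in deficient, 1.13 ± 0.248 in WT and 0.262 ± 0.121 in vector, with as few as 5 counts in a library, and rose in all 3 Zeb1 lines (log2 fold change in mimetic 2.73, SE 0.36, adjusted p = 1.46e-06).

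Of 20 further genes of fatty acid synthesis and activation tested, 10 fell and 4 rose in mimetic against vector (median -0.13), and 7 were lower and 2 higher in mimetic than in deficient. Of all genes, 30.9% were called lower and 28.6% higher against vector, and 14.9% lower and 12.6% higher against deficient. The count of 7 became 4 without mimetic replicate 1 or without deficient replicate 2, and the count of 2 became 0 or 1 without mimetic replicate 1, 2 or 3 or deficient replicate 1 or 3. Idh1, a source of NADPH, was 136 ± 0.371 CPM in mimetic, 142 ± 5.97 in deficient, 133 ± 3.01 in WT and 259 ± 6.51 in vector, and fell in all 3 Zeb1 lines. G6pdx, of the pentose phosphate pathway, was 95.5 ± 3.05 CPM in mimetic, 104 ± 4.19 in deficient, 157 ± 2.48 in WT and 148 ± 3.47 in vector, lower than vector in mimetic (adjusted p = 1.46e-10) and deficient (adjusted p = 4.68e-09), with a log2 fold change of 0.08 in WT (adjusted p = 0.0916).

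Genes of fatty acid oxidation were more often higher than lower in mimetic against deficient. Of 22 tested, 10 were higher and 1 (Ppard) lower in mimetic, with a median of 0.17, where 12.6% of all genes were called higher and 14.9% lower. Ppard, which encodes a fatty acid receptor, is named because it was the only lower one. The count of 10 became 6 without mimetic replicate 1 and 5 without mimetic replicate 2. The call of Ppard was lost without mimetic replicate 1 or 2 or deficient replicate 3 (count 0). With a fold minimum of 1.2 the count of 10 became 1, where 268 of all 12027 genes were called higher. Against vector 10 fell and 4 rose in mimetic, with a median of -0.13, where 30.9% of all genes were called lower and 28.6% higher. In either direction that is close to the 59.5% of all genes called. Cpt1a, the gate of fatty acid entry into mitochondria, was 125 ± 3.93 CPM in mimetic, 101 ± 4.62 in deficient, 123 ± 0.532 in WT and 217 ± 4.6 in vector. It was lowest in deficient, and mimetic was 1.25-fold above deficient (log2 fold change 0.32, SE 0.044, adjusted p = 1.41e-05).

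**Figure D4:**
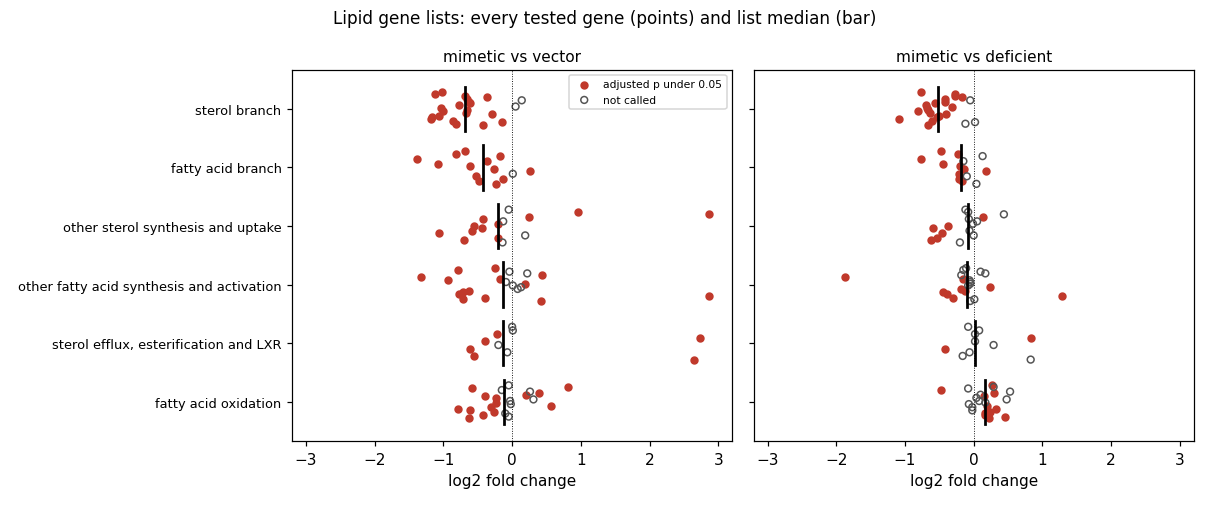
Log2 fold change (horizontal axes) of every tested gene (points) in the sterol and fatty acid branches and in 4 other lipid gene lists, for mimetic vs vector (left) and mimetic vs deficient (right); filled points have an adjusted p under 0.05 and bars are list medians. The sterol branch median is -0.68 on the left and -0.52 on the right, while the fatty acid oxidation median is -0.13 on the left and 0.17 on the right.

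Some members share sequence with other genes at the 3′ end, where tags fall. Stretches of at least 100 bases with at least 95% identity in the last 400 bases were found in other annotated genes for Acaca, Elovl6, Fdps and Idi1, none of them in the count table. Tm7sf2 shares 179 bases on the same strand with Vps51, within the last 400 bases of an annotated Tm7sf2 transcript. As genes, Tm7sf2 (chromosome 19, 6062821 to 6068373) and Vps51 (6067842 to 6077231) both lie on the minus strand. Their overlap is at the 5′ end of the Tm7sf2 gene and the 3′ end of Vps51, away from the 3′ end of the Tm7sf2 gene. Cyp51 and Srebf1 overlap Akap9 and Rai1 on the opposite strand, and Lss and Scap overlap genes that are not in the count table. Vps51 was 42.4 ± 1.23 CPM in mimetic and 50 ± 3.78 in vector (log2 fold change -0.24, adjusted p = 0.00358), where Tm7sf2 was -1.02. Akap9 was called lower in mimetic (log2 fold change -0.25, adjusted p = 0.00149) and WT (-0.48, adjusted p = 9.49e-07) against vector and was -0.14 in deficient (adjusted p = 0.0638), where Cyp51 rose. Rai1 was called lower in mimetic (log2 fold change -0.33, adjusted p = 0.00638) and WT (-0.45, adjusted p = 0.00036) against vector and was -0.15 in deficient (adjusted p = 0.176), where Srebf1 was -0.36 in mimetic, -0.05 in WT and -0.19 in deficient. The levels of these members are uncertain to that extent.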

How the data were processed

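Gene expression was measured by QuantSeq 3′ RNA-seq in 12 libraries of 4 lines of 393P cells. The authors deposited 1 table of raw read counts per gene, and its 12 sample columns were matched to the labels by name. Per the submitters' processing notes, reads were aligned with STAR to mm10; for versions, counting tool and counting strand, the sources used here give nothing. Total counts were 24.4 to 39 M per library. The smallest count of any gene in any library was 1, so rows with a count of 0 are not in the table, and such genes are not analysed here.

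From the counts, edgeR 4.0.16 (R 4.3.3) fitted 1 coefficient per line over all libraries with TMM scaling. Its filterByExpr removed 181 of 12208 genes, and the quasi-likelihood test was run on 12027 genes in 6 comparisons with Benjamini-Hochberg adjustment over all of them and a threshold of 0.05. The scripts were tested on simulated data. SE is the log2 fold change divided by the square root of F. CPM are counts scaled to the TMM-adjusted library size. Alternatives were RLE size factors, library size only, DESeq2 1.42.0, limma-voom (limma 3.58.1), no filter, at least 5 CPM in 3 libraries, only the lines compared, the replicate number as a block, a 1.2-fold minimum (glmTreat) and each library left out. Those for the 4 other lipid gene lists were chosen after seeing the data.

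The members and lists were chosen with earlier results of these data known. Values in every library were given for members with the smallest adjusted p, for members that moved against their branch and for the regulators, and up to 2 genes of each other list were named by smallest adjusted p; some genes this rule takes are not reported here. Gene positions are from GENCODE M21 (GRCm38), where 12195 gene IDs were found, 11959 with the same symbol and all 36 members among them. Promoters are from RefSeq on GRCm38.p6. No member is read as a replicate of another. Replicate libraries differed by more than sampling noise, with a mean chi-square per gene of 2.96 to 23.6; the highest values were those of the pairs that hold deficient replicate 3 or vector replicate 3.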

Additional observations from a re-analysis of the deposited data

Results flagged for a closer look

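Cyp51 was the only one of the 36 genes called lower than vector in 1 Zeb1 line and higher in another. It was lower in mimetic (log2 fold change -0.42) and in WT (-0.25) and higher in deficient (0.25), by edgeR's quasi-likelihood test. With a 1.2-fold minimum (glmTreat), the calls in deficient (adjusted p = 0.63) and in WT (0.618) were lost. The differences were tested directly. Cyp51 was -0.67 in mimetic against deficient (adjusted p = 1.19e-09) and 0.50 in deficient against WT (adjusted p = 2.03e-08). All 3 deficient libraries lay above all 3 vector libraries, and all mimetic and WT libraries lay below them. Cyp51 overlaps Akap9 on the opposite strand at its 3′ end, and Akap9 was lower than vector in mimetic (-0.25) and WT (-0.48) and at -0.14 in deficient (adjusted p = 0.0638). Its part in the result was not tested.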

How the results depend on the processing

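Counts of genes called in each list and direction, 40 in all, stayed within 1.5 times with RLE size factors, DESeq2, limma-voom, no filter and only the lines compared. With library size only, 1 sterol member rose in mimetic against vector, 0 were lower in deficient than in WT, 2 fatty acid members rose in deficient against vector, 2 were higher in mimetic than in deficient, and 7 other fatty acid genes rose in mimetic against vector. With at least 5 CPM in 3 libraries, 0 sterol members were lower in deficient than in WT, 0 efflux genes were higher in mimetic than in vector or deficient, and 1 other fatty acid gene was higher in mimetic than in deficient. The 2 efflux genes that rose in mimetic against vector, Nr1h3 among them, were below 5 CPM in every library. That filter left them untested, so the efflux counts of 0 do not show calls that failed a test. Acsl6, of the other fatty acid list, was left untested in the same way.

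With a 1.2-fold minimum, sterol counts became 0 higher and 5 lower for deficient and 0 higher for WT against vector, 1 higher and 7 lower for mimetic against WT, and 0 lower for deficient against WT. Fatty acid counts became 0 higher in mimetic, 0 higher and 5 lower in deficient and 0 higher and 4 lower in WT against vector, 0 higher and 3 lower in mimetic against deficient, 3 lower in mimetic against WT, and 0 higher and 0 lower in deficient against WT. Of the other lists, mimetic against vector gave 2 efflux genes lower, 1 other fatty acid gene higher and 6 oxidation genes lower. Mimetic against deficient gave 0 other sterol and 0 efflux genes higher, 0 other fatty acid genes higher and 2 lower, and 1 oxidation gene higher and 0 lower. The other 15 of the 40 counts stayed within 1.5 times. The minimum itself lowers these counts. Of all 12027 genes, 1769 were then called higher and 1897 lower in mimetic, 1670 and 1714 in deficient and 1952 and 2428 in WT against vector. Calls over all genes were 268 higher and 540 lower in mimetic against deficient, 1155 and 619 in mimetic against WT and 1719 and 1000 in deficient against WT.

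Same-numbered libraries deviated with correlations of -0.17 to 0.4, over 0.1 in 5 of 18 pairs, against -0.34 to 0.26 between different numbers. Taken over all pairs of lines, the numbers therefore do not pair the libraries. For mimetic and deficient the values were 0.27, 0.04 and 0.4 in replicates 1, 2 and 3. For WT and vector they were 0.07, 0.3 and 0.2. Of these, 0.27, 0.3 and 0.4 lay above every different-number pair. Each other pair of lines held a negative value. Whether mimetic and deficient libraries share a replicate effect was not tested. With the replicate block, 39 of 40 counts stayed within 1.5 times, and 0 efflux genes were higher in mimetic than in deficient. Among the 216 tests of members, the block added calls for Fasn in mimetic against deficient (adjusted p = 0.0489), Fads2 in mimetic against WT (0.0372) and Elovl1 in deficient against WT (0.0409), and ended that of Elovl5 in deficient against WT (0.0513).

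With 1 library left out, which leaves a line with 2 libraries, sterol members lower were 18 to 20 in mimetic, 11 to 13 in deficient and 16 to 18 in WT against vector, 16 to 19 in mimetic against deficient, 14 to 17 in mimetic against WT and 0 to 4 in deficient against WT, where 11 to 12 were higher. Fatty acid members higher were 0 to 2 in deficient against vector and 1 to 2 in mimetic against deficient. In mimetic against deficient, higher counts were 0 to 1 for other sterol genes, 0 to 1 for efflux genes, 0 to 2 for other fatty acid genes (4 to 8 lower) and 5 to 10 for oxidation genes (0 to 1 lower). Of 169 calls of members in 216 tests, 25 were lost without at least 1 library, 20 in at least 1 fit of all libraries without a fold minimum, and 0 reversed. The cause was not tested. With 24.4 M counts or more per library, the lowest member count was 82.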
